A study of Rattus norvegicus with 12 samples.

Results

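The heat shock and co-chaperone genes described here are the genes of the array whose symbol starts with Hsp, Dnaj or Bag followed by a digit, together with Hsf1 and Hsf2. Hspg2, a matrix proteoglycan, and symbols that join Hspb to ap were left out. The rule found 71 genes on 80 probe sets, of 14503 genes with 1 symbol in the platform's annotation, and 64 of the 71 were bright enough to be tested. The RNA came from endothelial cells (ECs) of Wistar rats, sorted by flow cytometry for CD31 and against CD45, from the ductus arteriosus (DA), the fetal vessel that joins the pulmonary artery to the aorta and closes after birth, or from the descending aorta. The F group was made of fetuses at day 21 of gestation that had not breathed, and the N group of neonates 30 minutes after caesarean delivery. The labels name no transgene or drug for any group. The 4 groups, aorta F, DA F, aorta N and DA N, had 3 arrays each, 12 in all, and the RNA of an array was pooled from several litters, so an array stands for a pool and not for an animal. The study's methods give litters for each stage rather than for each vessel, so the same litters may have given both DA and aorta pools, and p-values measure only the spread between these pools. The tissue was digested with a collagenase and dispase mixture, and dead cells were removed. Responses of the cells to this handling cannot be told apart from differences between the vessels in the animal.

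Heat shock proteins are chaperones that bind unfolded or damaged proteins and help them fold, stay soluble or be degraded. Hsp70 proteins cycle between binding and release. J-proteins (the Dnaj genes) deliver clients to Hsp70 and drive ATP hydrolysis, and BAG and Hsp110 proteins exchange the nucleotide and let the client go. Hsp90 acts later on kinases and steroid receptors, chaperonins fold proteins inside a chamber, and small heat shock proteins hold aggregating proteins without ATP. The transcription factor HSF1 raises the inducible members in stress by binding heat shock elements, arrays of inverted GAA units. In endothelium, Hsp90 binds the nitric oxide synthase and Hsp27, the product of Hspb1, binds actin filaments.

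The promoters of 5 members are shown as examples, and each holds a pair of the units described below. Hspb1, Dnajb1 and Bag3 were lower in the DA. Hsph1 was called over both stages with a replicate block but not in the fit of all arrays without it. Hspe1 had an estimate near 0 with a wide interval, and its promoter holds the longest run of units of the 5. Each sequence is RefSeq's (build GRCr8), 250 bases before to 50 after the annotated start, read in the direction of the gene, and the capitals mark pairs of units, GAANNTTC or TTCNNGAA, and their overlapping runs. Both patterns read the same on either strand, and neighbouring pairs may overlap. The Hspb1 promoter is chr12:26432252-26432551 on the minus strand, Dnajb1 chr19:41431092-41431391 on the minus strand, Bag3 chr1:192533210-192533509 on the plus strand, Hsph1 chr12:10427118-10427417 on the plus strand and Hspe1 chr9:64084077-64084376 on the plus strand.
Hspb1: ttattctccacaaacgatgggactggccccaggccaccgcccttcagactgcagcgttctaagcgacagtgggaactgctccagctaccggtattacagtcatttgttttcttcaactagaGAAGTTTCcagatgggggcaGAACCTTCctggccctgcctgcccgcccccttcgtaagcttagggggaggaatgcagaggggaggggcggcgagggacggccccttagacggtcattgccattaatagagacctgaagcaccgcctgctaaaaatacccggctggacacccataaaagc
Dnajb1: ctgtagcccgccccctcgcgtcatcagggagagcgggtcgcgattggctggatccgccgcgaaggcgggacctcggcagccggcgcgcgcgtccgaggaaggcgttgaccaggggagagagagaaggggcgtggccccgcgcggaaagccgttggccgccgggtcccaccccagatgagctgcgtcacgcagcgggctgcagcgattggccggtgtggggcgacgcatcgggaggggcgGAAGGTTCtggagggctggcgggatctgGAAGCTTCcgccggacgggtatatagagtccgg
Bag3: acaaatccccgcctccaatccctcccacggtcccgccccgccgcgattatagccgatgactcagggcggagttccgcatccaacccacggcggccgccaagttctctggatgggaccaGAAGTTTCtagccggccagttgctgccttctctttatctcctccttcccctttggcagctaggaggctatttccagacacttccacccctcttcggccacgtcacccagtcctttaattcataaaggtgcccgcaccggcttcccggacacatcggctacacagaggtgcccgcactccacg
Hsph1: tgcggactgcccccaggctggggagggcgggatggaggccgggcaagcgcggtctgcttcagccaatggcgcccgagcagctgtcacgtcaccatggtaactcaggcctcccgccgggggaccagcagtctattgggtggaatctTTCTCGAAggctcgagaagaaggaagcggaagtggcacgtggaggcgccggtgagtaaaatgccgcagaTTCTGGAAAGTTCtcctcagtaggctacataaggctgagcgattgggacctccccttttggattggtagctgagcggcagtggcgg
Hspe1: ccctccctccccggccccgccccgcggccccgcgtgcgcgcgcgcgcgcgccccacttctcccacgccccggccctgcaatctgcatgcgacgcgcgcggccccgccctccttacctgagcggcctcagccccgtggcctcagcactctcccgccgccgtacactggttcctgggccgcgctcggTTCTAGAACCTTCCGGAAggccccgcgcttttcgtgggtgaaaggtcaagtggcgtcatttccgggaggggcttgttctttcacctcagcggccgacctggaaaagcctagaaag

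Hspb1 had pairs at 129 to 122 and at 109 to 102 bases before the start, and Bag3 had a pair at 132 to 125. Dnajb1 had a pair at 11 to 4 bases before the start and another just past it. Hsph1 had a pair at 105 to 98 and a run of 3 units at 36 to 24 bases before the start, and Hspe1 had overlapping runs between 65 and 48. The starts of Hspe1 and Hspd1, whose products form the 2 parts of the mitochondrial chaperonin, lay 290 bases apart on opposite strands, so that their windows share 211 bases and the same runs. A promoter was given for 57 of the 71 members. Bag4, Dnaja2, Dnajb4, Dnajc11, Dnajc12, Dnajc15, Dnajc2, Dnajc22, Dnajc5b, Dnajc8, Hsf1, Hsp90aa1, Hspa12a and Hspb2 are named only.

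A pair of units was found in 17 of the 57 promoters (29.8%), against 15.9% of all 33469 promoters of that length in the table. A run of 3 units, GAANNTTCNNGAA or TTCNNGAANNTTC, was found in 5 (8.77%), those of Dnaja1, Hspa8, Hspd1, Hspe1 and Hsph1, against 0.798% of all promoters. The CCAAT box, CCAAT or ATTGG, was in 25 (43.9%) against 37.5%. The ER stress element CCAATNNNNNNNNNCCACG, searched on both strands and including a CCAAT box, was in 3, those of Dnajc3, Hsp90b1 and Hspa5, and in 0.0657% of all promoters. Over both stages, 3 of the 14 tested members with a pair were called, and 0 of the 5 with a run of 3 units. Of all probe sets tested, 8.12% were called. These are matches of letters and not sites shown to be bound, and their part in the differences was not tested.

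Values below are log2 signals as deposited, which compare arrays for a gene and not genes with each other, and the 3 values of a group stand in the order of its replicate numbers 1, 2 and 3. Tests are from limma over 18690 probe sets with Benjamini-Hochberg adjustment, and a gene is called at an adjusted p under 0.05. Array medians ranged from 5.63 to 5.76. Of the endothelial markers, 9 of 10 had a named probe set and 9 of 9 were above the lys spike, a control whose mean log2 signal of 4.44 set the lower limit of the test. Ptprc, the gene of CD45, and 3 of the other 6 leukocyte markers were below it. The 8 smooth muscle markers were all above it, with summed linear signals of 2150 to 2510 in aorta F, 3355 to 3516 in DA F, 2284 to 2587 in aorta N and 3439 to 4407 in DA N, so that every DA array was above every aorta array. Over both stages 5 of these 8 were called higher in the DA, Actg2 by 1.52, Tagln by 1.03, Des by 0.73, Acta2 by 0.58 and Myl9 by 0.56 on the log2 scale. Of 6 fibroblast markers, Pdgfrb (0.34) and Col1a2 (0.30) were called higher and Col1a1 (-0.48) lower. Of 2 tested markers of mesothelium 1 was called, Msln (0.56). Of 5 markers of heart muscle 1 was called, Tnnt2 (-0.70), and the median of the 5 was -0.01. The 3 tested erythroid markers had log2 fold changes of 0.12 to 0.27 in F and -1.17 to -0.11 in N, with 0 called in either stage or over both. The 9 endothelial markers summed to 18660 to 20370 in aorta F and 17180 to 17840 in DA F. In N they summed to 19280 to 20690 in the aorta and 17430 to 18550 in the DA. Every DA array was thus below every aorta array in this sum. Over both stages 8 of the 9 were below 0, with a median log2 fold change of -0.16. Of them 1, Cldn5, was called lower in the DA (log2 fold change -0.62). What these markers contribute to the differences below was not tested, and in sorted bulk RNA fewer cells of a type and less RNA per cell cannot be told apart.

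The first question was whether ECs of the DA differ from ECs of the aorta in chaperone genes. Over both stages, Hspb1, Dnajb1 and Bag3 were lower in the DA by 1.89-fold, 1.66-fold and 1.46-fold. Dnajc22 and Bag2 were higher by 1.40-fold and 1.36-fold, while the Hsp90 genes and the ER chaperone Hspa5 had differences near 0. The chaperonins had estimates near 0 as well, but with intervals too wide to leave out larger differences. In all, 5 of 64 members were called (7.81%), against 8.12% of all probe sets tested (4.93% lower and 3.19% higher), so the share of members called was close to that of the array as a whole. With the replicate number as a block, 9 members were called lower and 2 higher, 17.2% of the members against 17.8% of all probe sets (10.1% lower and 7.71% higher). All 6 DA arrays were below all 6 aorta arrays in 2 members, Hspb1 and Dnajc5 (all probe sets, 4.07%), and above them in 1, Dnajc22 (2.91%). The median log2 fold change of the 64 members was -0.07 and 40 of them were below 0, where all probe sets had a median of -0.0004 and 50.1% below 0.

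**Figure D1:**
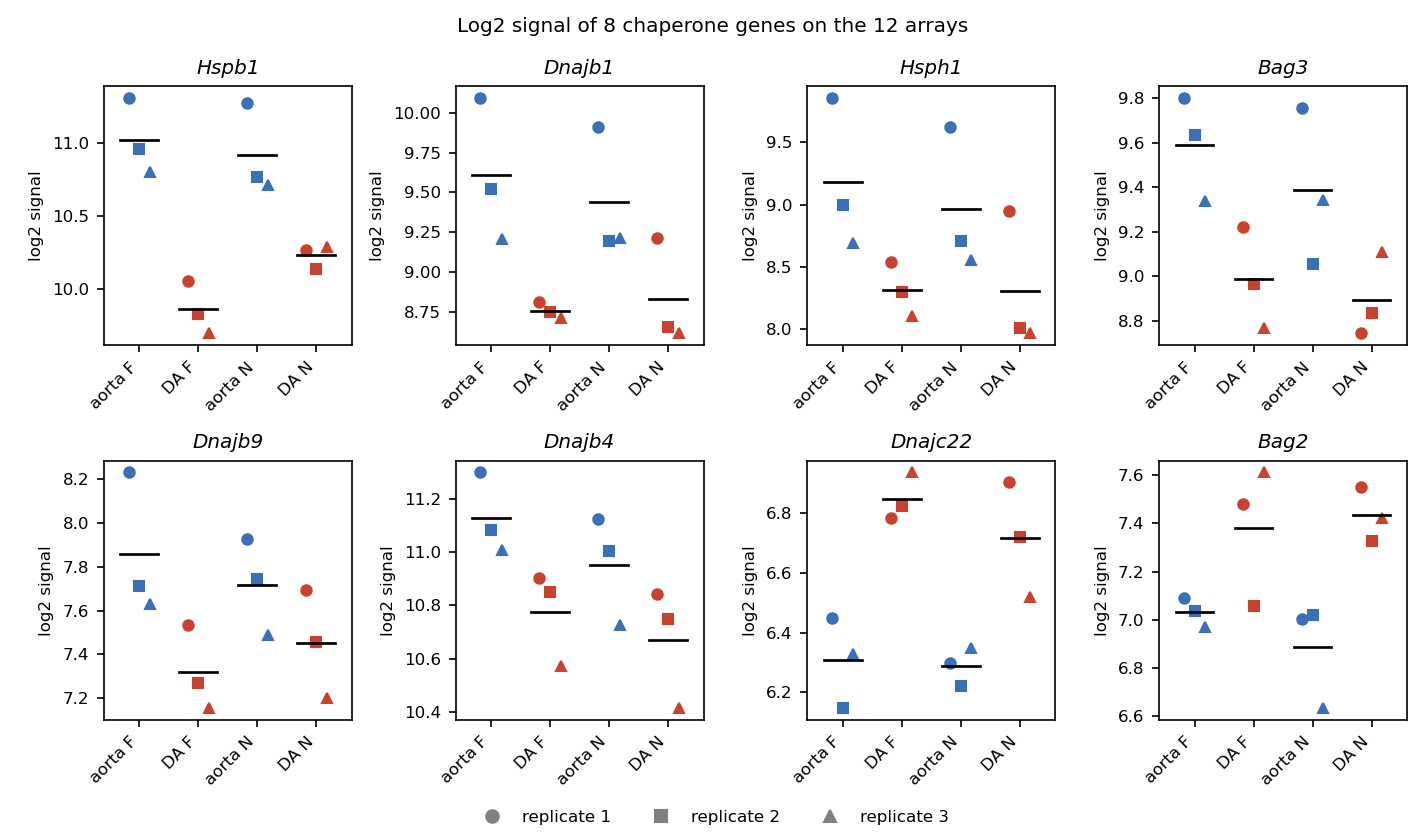
Log2 signal (vertical axis) of 8 members on the 12 arrays, by group (aorta blue, DA red), with the symbol giving the replicate number and the bar the group mean of 3 arrays. Hspb1 separates the vessels on all arrays (9.70 to 10.29 in the DA, 10.71 to 11.31 in the aorta), and Dnajc22 does so the other way, while replicate 1 is the highest array of each group for Dnajb1, Hsph1, Dnajb9 and Dnajb4.

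Hspb1 encodes Hsp27, the small heat shock protein that caps actin filaments. Its log2 signals were 11.31, 10.95 and 10.80 in aorta F, 10.06, 9.83 and 9.70 in DA F, 11.27, 10.77 and 10.71 in aorta N and 10.27, 10.13 and 10.29 in DA N. The 6 DA arrays were all below the 6 aorta arrays. The log2 fold change over both stages was -0.92 (standard error 0.12, adjusted p = 0.000393, limma), and the adjusted p stayed between 0.000569 and 0.00207 when any single array was left out. Without the 4 arrays of replicate number 2 it was 0.0592. Of the 64 members, Hspb1 had the largest difference in F, -1.16 (adjusted p = 0.0022). In N the difference was -0.69 (adjusted p = 0.059), which was called with the replicate block (adjusted p = 0.00267) and without aorta F replicate 1 (adjusted p = 0.0421). The difference between the stages was 0.47 with a 95% interval of -0.07 to 1.01 (adjusted p = 1.0).

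The other 4 small heat shock proteins tested were not called. Hspb6, a small heat shock protein of smooth muscle, had signals of 7.16, 7.80 and 7.84 in aorta F, 7.36, 7.20 and 7.81 in DA F, 7.25, 7.62 and 7.65 in aorta N and 7.14, 7.75 and 7.68 in DA N, with overlapping groups and a log2 fold change over both stages of -0.06 (95% interval -0.41 to 0.29). Hspb2, Hspb3 and Hspb9 lay between 0.00 and 0.16. Hspb7 and Hspb8 were below the lys spike and were not tested, with Hspb8, the partner of Bag3, between 3.54 and 4.60 on the 12 arrays. Cryab, the alpha B-crystallin, is a close relative of Hspb1 whose symbol falls outside the rule. Its log2 signals were 5.82, 5.39 and 5.57 in aorta F, 6.58, 6.35 and 6.55 in DA F, 5.80, 5.30 and 5.87 in aorta N and 6.68, 6.83 and 6.11 in DA N. Here the DA arrays were all above the aorta arrays, and the log2 fold change was 0.89 (adjusted p = 0.00171), opposite in sign to that of Hspb1. Cryab is also made by smooth muscle, whose markers were higher on the DA arrays, and their part in its difference was not tested.

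Dnajb1 encodes Hsp40, the inducible J-protein that works with Hsp70. Its signals were 10.09, 9.52 and 9.21 in aorta F, 8.81, 8.75 and 8.71 in DA F, 9.91, 9.19 and 9.21 in aorta N and 9.21, 8.65 and 8.62 in DA N. The groups were apart in F and met in N at replicate 1 of the DA. Within each replicate number the DA was below the aorta in 6 of 6 pairs. The share of all probe sets with such a count was not computed, so counts of pairs here and below are descriptions. The log2 fold change over both stages was -0.73 (standard error 0.18, adjusted p = 0.0213), and the call was lost without DA F replicate 3 (adjusted p = 0.0519), DA N replicate 2 (0.0646) or DA N replicate 3 (0.052). The replicate block gave an adjusted p of 0.000254, and it called Dnajb1 in F and in N as well (0.00194 and 0.0179, against 0.0965 and 0.351 without it).

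Hsph1, an Hsp110 protein that releases nucleotide from Hsp70, had signals of 9.86, 9.00 and 8.69 in aorta F, 8.54, 8.30 and 8.11 in DA F, 9.62, 8.71 and 8.56 in aorta N and 8.95, 8.01 and 7.97 in DA N. Replicate 1 was the highest array of all 4 groups, and the DA was below the aorta in 6 of 6 pairs of the same number. The log2 fold change over both stages was -0.76 (standard error 0.25) and did not pass without the block (adjusted p = 0.0947), but did with it (0.000214), without DA N replicate 1 (0.0301) and without the 4 arrays of replicate number 1 (0.0082). With the block it also passed in F (0.00194) and in N (0.0133). Its relative Hspa4 had a log2 fold change of 0.11 (95% interval -0.33 to 0.55), and Hspa4l was below the lys spike and not tested.

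The BAG genes went both ways. Bag3, a partner of Hsp70 and of the small heat shock proteins in selective autophagy, had signals of 9.80, 9.64 and 9.34 in aorta F, 9.22, 8.97 and 8.77 in DA F, 9.76, 9.06 and 9.34 in aorta N and 8.74, 8.84 and 9.11 in DA N. The vessels were apart in F and overlapped in N. Its log2 fold change over both stages was -0.55 (standard error 0.14, adjusted p = 0.0267). That call was lost, with adjusted p from 0.0555 to 0.0732, without any of aorta F replicates 1 and 2, DA F replicates 2 and 3, aorta N replicate 1 and DA N replicates 1 and 2. With the block Bag3 also passed in F (0.0383, against 0.138).

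Bag2, an inhibitor of the ubiquitin ligase CHIP, had signals of 7.09, 7.04 and 6.97 in aorta F, 7.48, 7.06 and 7.61 in DA F, 7.01, 7.02 and 6.64 in aorta N and 7.55, 7.33 and 7.42 in DA N. The DA was higher in 6 of 6 pairs, with separate groups in N. The log2 fold change was 0.45 (standard error 0.11, adjusted p = 0.0258), and the call was lost, with adjusted p from 0.0543 to 0.0672, without any of aorta F replicates 2 and 3, DA F replicates 1 and 3, aorta N replicate 3 and DA N replicate 1. With the block Bag2 passed in N (0.0365, against 0.106). The remaining members Bag1, Bag4, Bag5 and Bag6 had log2 fold changes of -0.20, 0.10, -0.01 and 0.15, none of them called, and Bag6 was higher in the DA in 6 of 6 pairs.

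**Figure D2:**
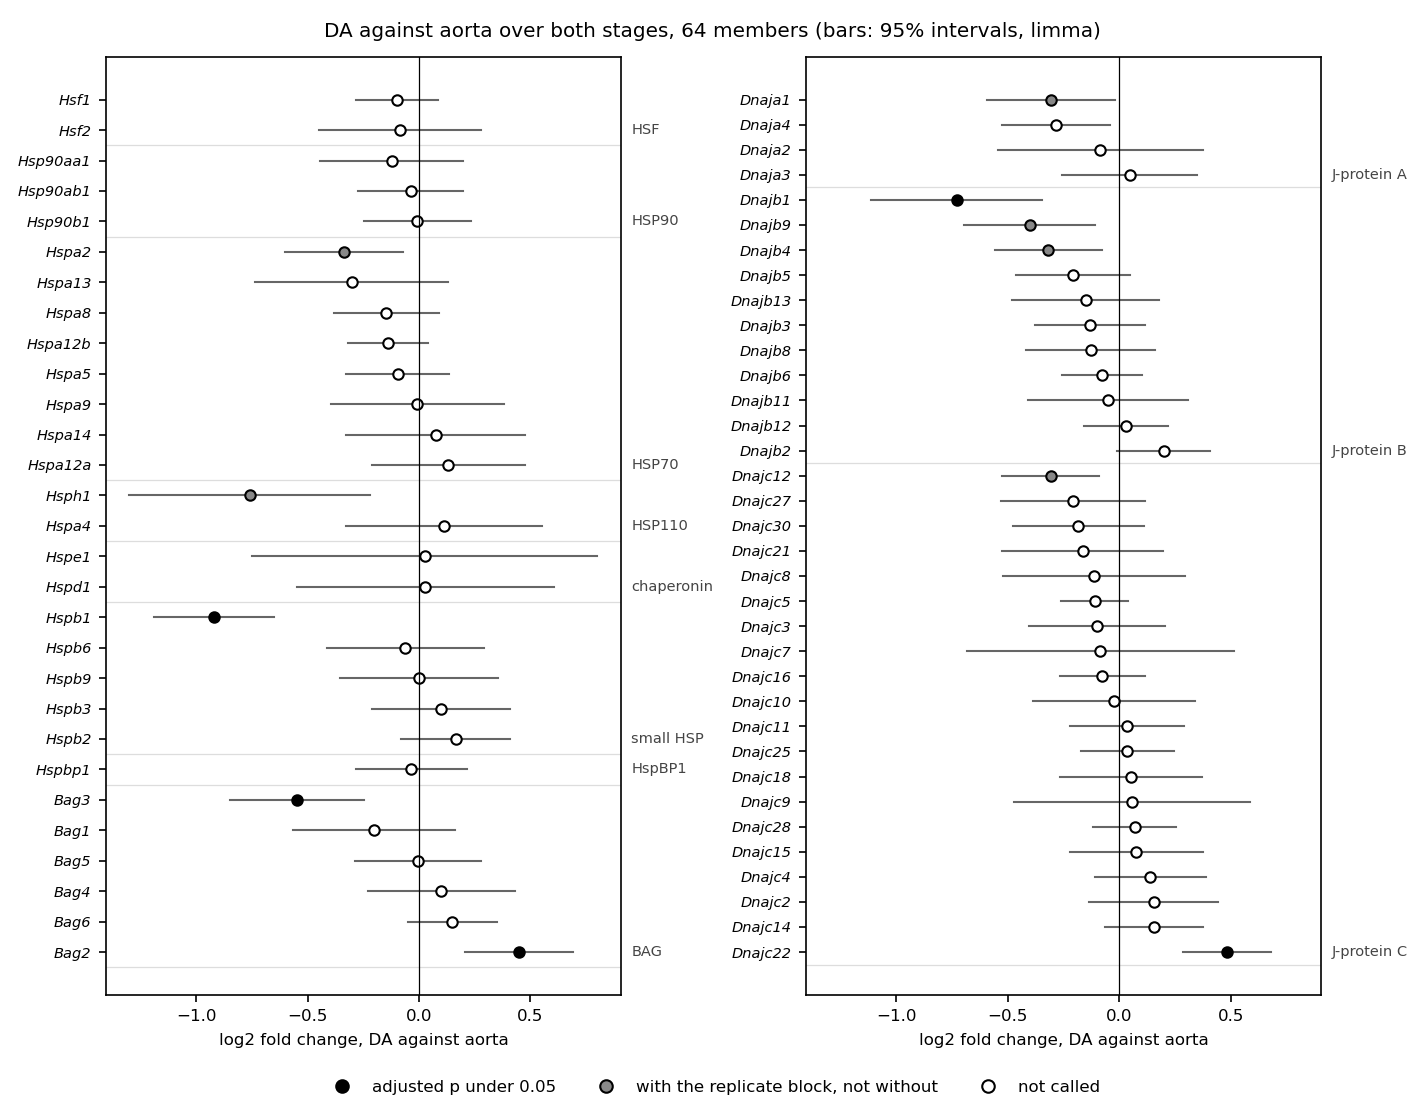
Log2 fold change of the DA against the aorta over both stages (horizontal axis) for the 64 members tested, by family, with 95% intervals from limma and the fill giving the call. The lower calls are Hspb1, Dnajb1 and Bag3 and the higher ones Bag2 and Dnajc22, and most other intervals span 0.

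Of the 35 J-proteins tested, 1 was called lower over both stages, Dnajb1, and 1 higher, Dnajc22, 5.71% against 8.12% of all probe sets. The median log2 fold change was -0.08, with 22 below 0 (62.9%, all probe sets 50.1%). Dnajc22, a membrane J-protein, had signals of 6.45, 6.15 and 6.33 in aorta F, 6.78, 6.82 and 6.94 in DA F, 6.30, 6.22 and 6.35 in aorta N and 6.90, 6.72 and 6.52 in DA N. All 6 DA arrays were above all 6 aorta arrays. The log2 fold change was 0.48 (standard error 0.09, adjusted p = 0.00457), called when any single array was left out (adjusted p 0.00284 to 0.0163) but not without the 4 arrays of replicate number 2 (0.264). In F it was 0.54 (adjusted p = 0.0349), a call that ended without 8 of the 12 single arrays (0.0537 to 0.165), namely aorta F replicates 2 and 3, DA F replicates 1, 2 and 3, aorta N replicates 1 and 2 and DA N replicate 2. In N it was 0.43 (adjusted p = 0.127, with the block 0.0398).

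A further 4 J-proteins were not called in the unblocked fit of all arrays and were called with the replicate block. Dnajb9, a co-chaperone of the ER that binds the stress sensor IRE1, had signals of 8.23, 7.71 and 7.63 in aorta F, 7.53, 7.27 and 7.16 in DA F, 7.92, 7.74 and 7.49 in aorta N and 7.70, 7.46 and 7.20 in DA N. Its log2 fold change over both stages was -0.40 (adjusted p = 0.103, with the block 0.00113), with the DA lower in 6 of 6 pairs. Dnajb4, a relative of Dnajb1, had -0.32 (0.122, with the block 0.00361), Dnajc12 -0.31 (0.0896, with the block 0.0169) and Dnaja1, a major partner of cytosolic Hsp70, -0.31 (0.23, with the block 0.0193). Each was lower in the DA in 6 of 6 pairs, and after quantile normalization Dnajb9, Dnajb4 and Dnajc12 were called as well (adjusted p 0.038, 0.0257 and 0.0453). Dnajc12 was also called without DA N replicate 1 (0.0471).

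Other J-proteins at the ends of their classes did not pass with or without the block. Dnaja4 had a log2 fold change of -0.29, Dnajc27 of -0.21, Dnajb5 of -0.21 and Dnajc30 of -0.18. On the other side Dnajb2, a neuronal J-protein, had 0.20, Dnajc14 0.16 and Dnajc2, a ribosome-bound J-protein, 0.15, and Dnajb2 and Dnajc2 were higher in the DA in 6 of 6 pairs. Dnajb12, Dnaja3 and Dnajb11 had 0.03, 0.05 and -0.05, and Dnaja2 had -0.08. Dnajc5, a cysteine string protein of vesicle release, had DA arrays all below the aorta arrays (8.79 to 8.94 against 8.96 to 9.03) with a log2 fold change of only -0.11 (adjusted p = 0.471).

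Among the Hsp70 genes 0 of 8 were called by limma over both stages (all probe sets, 8.12%). There was 1 at an unadjusted p under 0.05 (all probe sets, 18.2%) and 1 with the block (all probe sets, 17.8%). That was Hspa2, an Hsp70 best known from germ cells. Its signals were 7.13, 6.91 and 6.99 in aorta F, 6.93, 6.50 and 6.53 in DA F, 7.52, 7.34 and 7.09 in aorta N and 7.29, 6.77 and 6.94 in DA N, with overlapping groups and a log2 fold change of -0.34 (adjusted p = 0.135, with the block 0.00766). The inducible Hspa1a and Hspa1b had no probe set of their own and were not analysed here. Hspa8, the constitutive Hsp70, had 13.23, 13.00 and 12.85 in aorta F, 12.90, 12.88 and 12.57 in DA F, 13.06, 12.91 and 12.72 in aorta N and 13.00, 12.89 and 12.65 in DA N. It was lower in the DA in 6 of 6 pairs by a mean of only 0.15 (95% interval of the log2 fold change -0.38 to 0.09), and its 8 probe sets gave -0.15 to -0.10, none called, although closely related copies can share its probes.

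Chaperones of the other compartments had small differences with intervals around 0. Hspa5 (BiP), the Hsp70 of the ER, had a log2 fold change of -0.10 (95% interval -0.33 to 0.13) and Hsp90b1, its Hsp90, -0.01 (-0.25 to 0.23). Hspa9, the mitochondrial Hsp70, had -0.01 (-0.40 to 0.38), and the chaperonin genes Hspd1 and Hspe1 had 0.03 (-0.55 to 0.60) and 0.03 (-0.75 to 0.80), the last 2 with wide intervals. Hsp90aa1, the inducible cytosolic Hsp90, had -0.12 (-0.44 to 0.20) and Hsp90ab1, the constitutive form, -0.04 (-0.27 to 0.20). The 8 ER members had a median of -0.07, with 0 called by limma, 1 at an unadjusted p under 0.05 and 1, Dnajb9, with the block. The 7 mitochondrial members had a median of 0.03, with 0 called by limma at either threshold and 0 with the block. Of all probe sets, 8.12% were called by limma, 18.2% had an unadjusted p under 0.05 and 17.8% were called with the block.

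The transcription factors of the response had differences near 0. Hsf1 had signals of 8.15, 8.38 and 8.22 in aorta F, 8.25, 8.14 and 8.15 in DA F, 8.17, 8.14 and 8.38 in aorta N and 7.97, 8.11 and 8.23 in DA N, a log2 fold change over both stages of -0.10 (95% interval -0.28 to 0.09). Hsf2 had -0.09 (-0.45 to 0.28). The array measures their RNA and not the activity of the proteins.

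Genes known as targets of HSF1, named heat-inducible here, were described as a list. It holds Hspb1, Dnajb1, Bag3, Hsph1, Dnaja1, Hspa4, Hsp90aa1, Hspd1 and Hspe1 among others. It also holds Hspa8 and Hsp90ab1, the constitutive forms, so it does not stand for inducible genes only. Of its 16 genes, 12 were tested. Over both stages 3 of 12 were called lower, Hspb1, Dnajb1 and Bag3, and 0 higher (all probe sets, 4.93% lower), and 5 were called lower with the block (all probe sets, 10.1%). Of the 12, 9 were below 0 (all probe sets, 50.1%), and the median was -0.22, beside -0.04 for the 52 other members and -0.0004 for all probe sets. The list was chosen with earlier results of these data known and is no independent evidence of its direction.

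In F alone, 2 of 64 members were called, Hspb1 lower and Dnajc22 higher, 3.12% against 3.77% of all probe sets (2.28% lower and 1.49% higher). With the block 7 were lower and 1 higher (12.5%), against 10.4% of all probe sets (6.5% lower and 3.94% higher). The median was -0.10 and 48 of 64 members were below 0, beside 50.5% of all probe sets. The DA arrays were all below the aorta arrays in 13 members (all probe sets, 10.9%) and all above in 2 (7.73%). In N alone, 0 of 64 were called by limma (all probe sets 3.14%, of which 1.87% lower and 1.26% higher). There were 5 of 64 at an unadjusted p under 0.05 by limma, where all probe sets had 10.6%. The methods' t-test gave 4 at that unadjusted threshold, and its share of all probe sets was not computed. With the block 5 were called, 3 lower and 2 higher (all probe sets 7.27%, of which 4.28% lower and 2.99% higher). The smallest adjusted p in N was 0.059, that of Hspb1. The median was 0.02, with 31 below 0, and the groups were separate in 2 members below and 2 above (8.3% and 6.98% of all probe sets). No difference between the stages passed (0 of 64 by limma and 0 with the block, and 0 of all probe sets in each). At an unadjusted p under 0.05 by limma there were 0 of 64, against 0.931% of all probe sets.

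**Figure D3:**
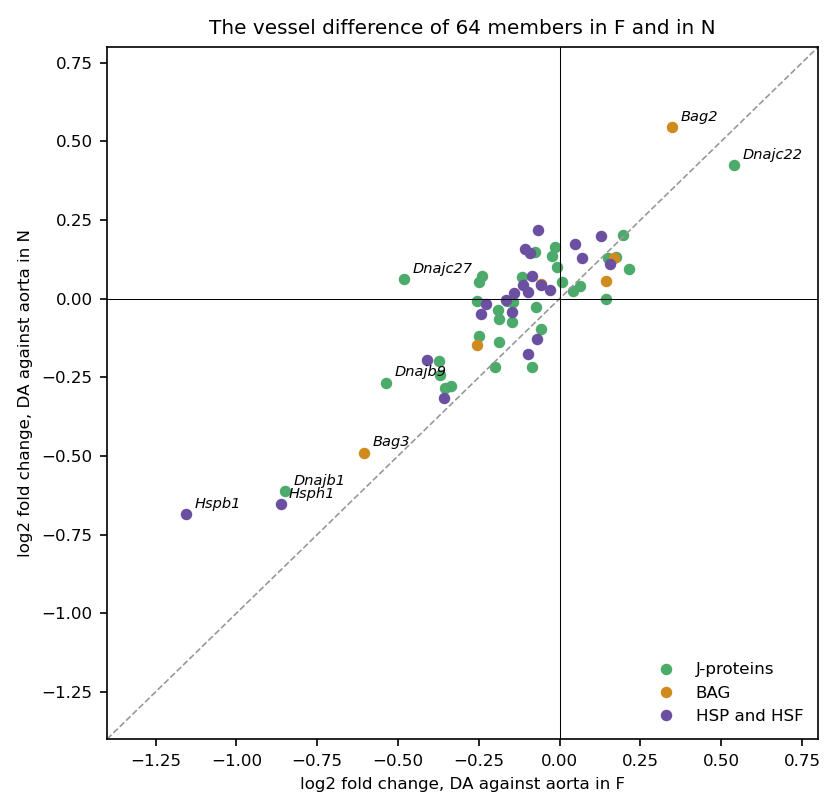
Log2 fold change of the DA against the aorta in F (horizontal axis) and in N (vertical axis) for the 64 members, coloured by family, with a dashed line of equality. Hspb1 lies at -1.16 and -0.69, Dnajb1 at -0.85 and -0.61 and Hsph1 at -0.86 and -0.65, Bag2 and Dnajc22 are above 0 in both stages, and no member's difference between the stages passed the test.

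The second question was whether chaperone genes change within 30 minutes of birth. Between N and F no member was called for either vessel (0 of 64 by limma and 0 with the block). By limma 0.00535% of all probe sets passed for the DA and 0% for the aorta, or 0.0535% and 0.0161% with the block. At an unadjusted p under 0.05 by limma there were 0 of 64 members for each vessel. All probe sets had 2.01% under that threshold for the DA and 1.38% for the aorta. The methods' t-test gave 1 and 0 at the same unadjusted threshold, and its share of all probe sets was not computed. In the DA, the median log2 fold change was 0.06 with 48 of 64 above 0 and 25% below, where all probe sets had a median of 0.02 and 44.6% below. In the aorta the median was -0.05 with 43 of 64 below 0 (67.2%), where all probe sets had a median of 0.0007 and 49.7% below.

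In the DA, Hspb1 had signals of 9.70 to 10.06 in F and 10.13 to 10.29 in N, and was the only member whose groups were separate there (all probe sets, 2.99% higher and 2.04% lower). In the aorta 0 members had separate groups (all probe sets, 2.93% higher and 1.46% lower). The log2 fold change was 0.37 (95% interval -0.01 to 0.75), against -0.10 (-0.48 to 0.28) in the aorta. Hspa2 had the highest value of the aorta and a like one in the DA, 0.31 (-0.07 to 0.68) and 0.35 (-0.03 to 0.72), and N was above F in 6 of 6 pairs. Dnajc27 had 0.38 (-0.08 to 0.83) in the DA and -0.17 (-0.62 to 0.29) in the aorta. Dnajc25 and Hspbp1, a nucleotide exchange factor of Hsp70, came next in the DA by p, though not by size, with 0.16 and 0.18. Dnajc3, an inhibitor of the stress kinase PERK, had -0.25 (-0.68 to 0.18) in the aorta, Dnajb4 -0.18, Bag3 -0.21 and Hsp90aa1 -0.21. None of these passed the test.

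The 12 tested members of the heat-inducible list, with the constitutive Hspa8 and Hsp90ab1 among them, all had N below F in the aorta. Their log2 fold changes there were -0.39 to -0.02. Of the 52 other members 31 were below 0 there (59.6%), and of all probe sets 49.7%. In the DA 9 of 12 had N above F, a share like that of the other members (39 of 52). Both sets had 25% below 0 there, against 44.6% of all probe sets. None of the 12 passed alone in either vessel, and members measured on the same arrays are not independent, so the counts are a description. The list was also chosen with earlier results of these data known. The largest change of the 12 in the aorta, -0.39 for Hspe1, has a 95% interval of -1.48 to 0.71.

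**Figure D4:**
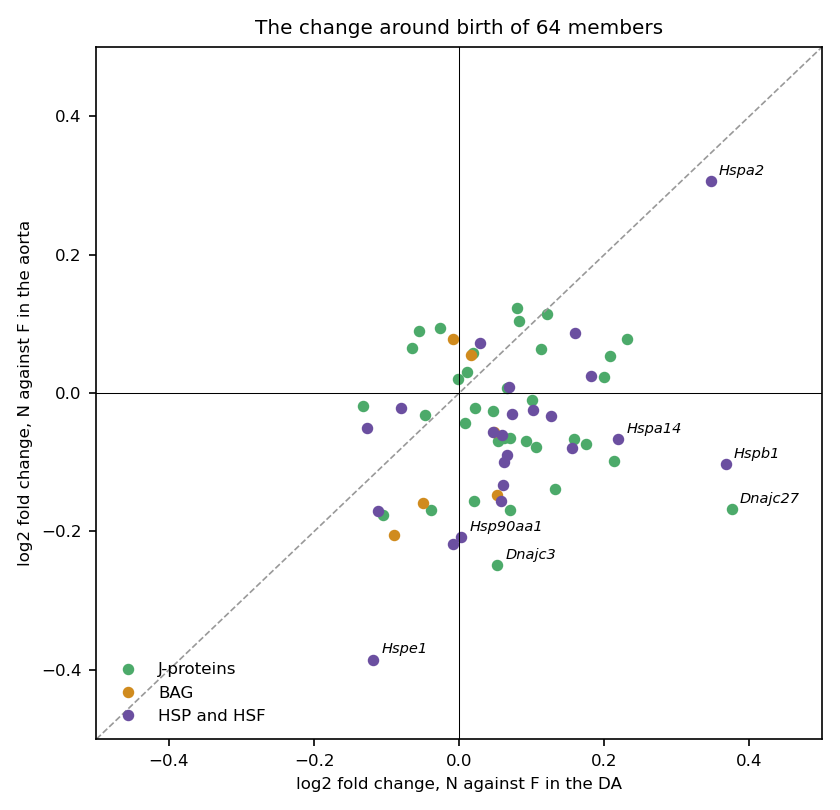
Log2 fold change of N against F in the DA (horizontal axis) and in the aorta (vertical axis) for the 64 members, coloured by family, with a dashed line of equality. Hspb1, Dnajc27 and Hspa2 lie farthest right (0.37, 0.38 and 0.35), Hspe1 lowest (-0.39), and none passed the test.

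Much of the spread of the members within groups followed the replicate number. Replicate 1 was the highest array in all 4 groups for 26 of 64 members (40.6%), against 21% of all probe sets, and replicate 3 the lowest in all 4 groups for 16 (25%), against 13.9%. Hspe1 had 8.55, 7.27 and 7.38 in aorta F, 8.23, 7.26 and 7.39 in DA F, 8.27, 7.08 and 6.70 in aorta N and 8.48, 7.33 and 6.72 in DA N, so that replicate 1 exceeded the mean of the other arrays of its group by 1.24 on average. That excess was 0.92 for Dnajc7, a co-chaperone that binds Hsp70 and Hsp90, and 0.82 for Hsph1, and it went the other way for Hspb9, Hspb3 and Hspb6 (-0.50, -0.45 and -0.44). The ER members Hspa5, Hsp90b1, Hspa13, Dnajb9, Dnajb11 and Dnajc3 were among the 26. The lys spike differed with the number too, at 4.53 to 6.17 on the arrays of replicate 1, 4.16 to 4.78 on those of replicate 2 and 3.41 to 3.53 on those of replicate 3. No source used here says what a replicate number marks, and their part in the spread of these genes, beyond the block, was not tested.

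**Figure D5:**
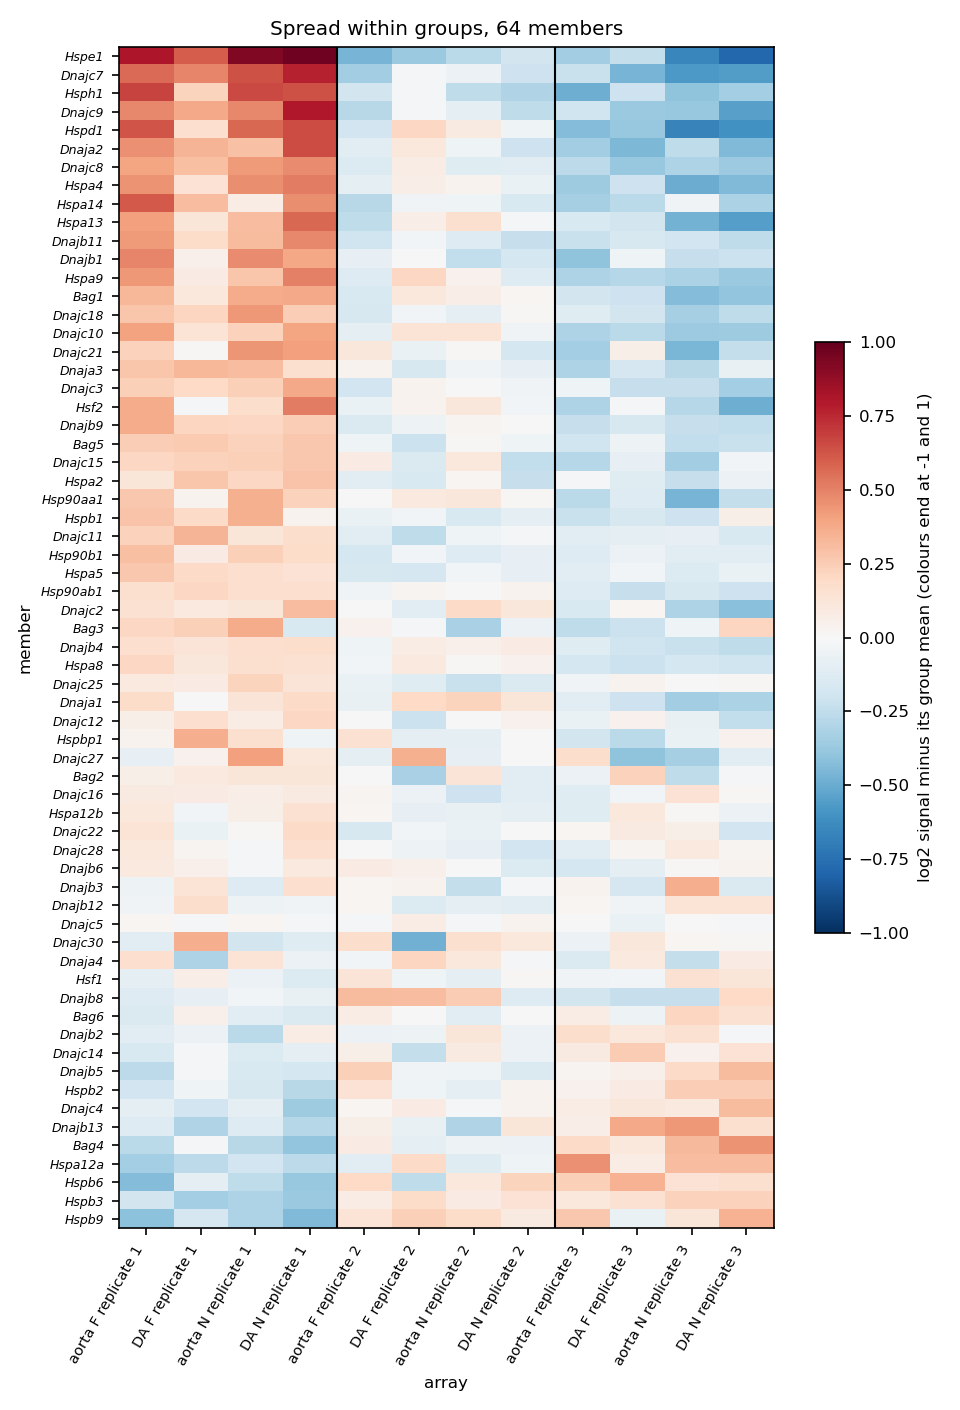
Log2 signal minus its group mean (colour) for the 64 members (rows, ordered by the excess of replicate 1) on the 12 arrays (columns, ordered by replicate number). The 4 arrays of replicate 1 are above their group means for most members, Hspe1 by the most, and those of replicate 3 mostly below, with Hspb9, Hspb3 and Hspb6 at the bottom the other way.

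Related genes outside the rule give the surroundings of the members. Of 16 tested co-chaperones of Hsp90 and Hsp70, 1 was called lower over both stages, Fkbp5 (6.25%, all probe sets 4.93%). Fkbp5 is a partner of Hsp90 in steroid receptor complexes that glucocorticoids induce. Its log2 signals were 6.58, 6.58 and 6.19 in aorta F, 5.94, 6.09 and 6.16 in DA F, 6.70, 6.72 and 6.63 in aorta N and 6.28, 6.35 and 5.99 in DA N, a log2 fold change of -0.43 (adjusted p = 0.0165). Of the 8 subunits of the cytosolic chaperonin TRiC, 0 were called by limma (all probe sets, 8.12%), with a median of 0.07. None had an unadjusted p under 0.05 (all probe sets, 18.2%) or was called with the block (all probe sets, 17.8%). Of 21 genes of ER folding and the unfolded protein response, 1 was called lower, Atf6 (4.76%, all probe sets 4.93%). Atf6, a membrane-bound factor that raises ER chaperones, differed by -0.50 (adjusted p = 0.00205, limma). Its DA arrays were at 8.36 to 8.66 and its aorta arrays at 8.78 to 9.20. Immediate early genes, which cells switch on within minutes of a stimulus, were below 0 in 18 of 18 (all probe sets, 50.1%), with 5 called lower over both stages (all probe sets, 4.93%), among them Nr4a1 by -0.52 (adjusted p = 0.00501), Ier3 by -0.35, Jund by -0.40 and Atf3 by -0.42 (adjusted p = 0.0229). The mean log2 signal of the 18 was 10.44 to 10.53 on the arrays of aorta F, 10.08 to 10.30 in DA F, 10.40 to 10.50 in aorta N and 10.24 to 10.33 in DA N. Their part in the differences of Hspb1, Dnajb1 and Bag3 was not tested.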

How the data were processed

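The authors measured RNA of sorted ECs on 12 Affymetrix Rat Gene arrays. The deposited table holds log2 signals of 26468 probe sets, summarised and normalized by the authors by a method that no source used here names. The values were used as they stand, and precision is limited by how few arrays there are. Symbols came from the platform's annotation (15307 probe sets with 1 symbol, 323 with several, 10838 with none). A gene was read from its brightest probe set with 1 symbol. Probe sets at or above the mean of the lys spike over the 12 arrays (18690) were tested. Dnajb7, Dnajc5b, Dnajc5g, Dnajc6, Hspa4l, Hspb7 and Hspb8 fell below. The members and lists were chosen with earlier results of these data known.

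A model of 4 group means was fitted to all 12 arrays (R 4.3.3, limma 3.58.1, 8 residual degrees of freedom), and p-values were adjusted by Benjamini-Hochberg over all probe sets tested. The fit was tested on simulated data. Named were the called members, all measured members of the main families, the extremes of each J-protein class, in each vessel the 5 members with the smallest p between N and F, and called related genes. Dnajc5, Dnajc7, Hspb2, Hspb3 and Hspb9 were chosen after their values were seen. Deviations from the group means were correlated across probe sets between arrays. For the same number, r was 0.5393 to 0.82 (replicate 1), 0.1025 to 0.3012 (replicate 2) and 0.3928 to 0.7352 (replicate 3). Arrays of different numbers gave -0.738 to 0.3678, a range that holds all values of replicate 2. Among the tested members the ranges were 0.6363 to 0.9117, -0.0281 to 0.3543 and 0.5579 to 0.8028, against -0.8586 to 0.7557 for different numbers. The numbers were taken to pair the arrays and were also fitted as a block, although replicate 2 alone does not show such a pairing. The pairing comes from the data, those of replicates 1 and 3, and not from the labels. Calls with the block and counts of pairs depend on it. Other alternatives were no filter, quantile normalization, an intensity trend, the methods' t-test, the mean of a gene's probe sets, and leaving out single arrays or, chosen after seeing the data, all arrays of a replicate number.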

Additional observations from a re-analysis of the deposited data

How the results depend on the processing

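No member called in any vessel comparison changed direction under any alternative, and between N and F the counts stayed at 0 under every alternative. With the replicate block, the members called lower went from 1 to 7 in F, from 0 to 3 in N and from 3 to 9 over both stages, and those called higher in N from 0 to 2. Quantile normalization gave 1 lower in N and 6 over both stages, and the intensity trend 1 lower in N. In F the higher count was 0 with no filter, and both counts were 0 by the methods' t-test after adjustment. Leaving out 1 array gave 0 to 1 higher in F, 0 to 1 lower in N, and 1 to 4 lower and 1 to 2 higher over both stages. Without the arrays of replicate number 1, 0 were higher in F and 1 over both stages. Without number 2, 0 were lower and 0 higher in F and over both stages. Without number 3, 0 were higher in F, and 1 lower and 1 higher over both stages. These last fits hold 2 arrays a group. Genes near the lys spike have little signal over background, and 3 pools a group leave intervals wide for Hspe1 and Hspd1.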
